A study of Mus musculus with 3 samples.

Results

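The regions described here are intergenic ZFP410 sites that were listed only after the induction of brown adipocyte differentiation. They number 2645, or 36.5% of the 7241 induced peaks on chromosomes 1 to 19 and X. A site was a row of the induced ZFP410 peak list that overlapped no peak of the untreated ZFP410 list and no IgG peak by as little as 1 bp. Its summit also had to lie outside every protein-coding gene of mm10 and more than 1 kb from the ends of those genes. The regions were chosen by the presence of a peak in one list and its absence from the others, so their absence from the untreated list is no result.

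Chromatin was profiled by CUT&Tag, in which an antibody directs a transposase to cut and tag the DNA around its target. The cells were brown preadipocytes, the precursors of thermogenic fat cells, sorted as Lin-, CD29+, CD34+ and Sca1+ cells from wild-type male C57BL/6 mice. A ZFP410 antibody was used on untreated cells and on cells given brown adipocyte differentiation medium for 3 days, and control IgG on untreated cells. Each of these 3 groups had 1 library, so the sites have no replicate check, no p-value is given. No IgG profile of induced cells was used here. Peaks carry no expression values, so the sorted identity of the cells was not checked.

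ZFP410 is a zinc finger protein that binds DNA directly and is known in other cells as an activator of Chd4, which encodes the remodelling ATPase of the NuRD complex. DNA between coding genes holds enhancers, the promoters of non-coding RNA genes and much repeated sequence. Distal sites of this kind are usually described by the genes they lie next to, although a neighbour need not be the gene a site acts on.

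The whole lists held 3256 untreated, 7475 induced and 480 IgG peaks. The fragments at each summit were recovered from the fold and −log10 p that the authors' peak caller gave (described under the processing). Relative depth was 2.01 for the induced against the untreated library, and the ratio of their genome backgrounds was 2.24. Against IgG the relative depth of the induced library was 14.1, and their genome backgrounds were 0.246 (induced) and 0.0231 (IgG). The absence of an IgG peak therefore says little about weak sites.

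A few sites fell on annotated promoters of long non-coding RNA genes, and these show what an intergenic summit can sit on. The summits of 21 of the 2645 sites (0.794%, 95% Wilson interval 0.520 to 1.21) lay in a RefSeq promoter window, here 250 bases before to 50 bases after a transcription start. Among intergenic sites present in both ZFP410 lists, called kept sites here, the number was 10 of 505 (1.98%, 1.08 to 3.61). All 21 windows of the induced-only sites belonged to long non-coding RNA genes. Promoter windows of coding genes were left out by the rule, which keeps summits more than 1 kb from coding gene ends. The 4 with the highest fold are printed 5′ to 3′ on the gene's own strand (RefSeq, GRCm38.p6), with the 21 bases centred on the ZFP410 summit in capitals.
B330016D10Rik, chr4:141545912-141546211, plus strand: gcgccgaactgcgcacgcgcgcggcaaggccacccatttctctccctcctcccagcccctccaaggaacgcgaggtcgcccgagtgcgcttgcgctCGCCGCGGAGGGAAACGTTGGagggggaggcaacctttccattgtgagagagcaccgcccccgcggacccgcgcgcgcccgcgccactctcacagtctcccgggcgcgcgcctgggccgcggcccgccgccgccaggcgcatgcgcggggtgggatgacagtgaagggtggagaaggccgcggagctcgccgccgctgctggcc
Gm40122, chr3:108174717-108175016, minus strand: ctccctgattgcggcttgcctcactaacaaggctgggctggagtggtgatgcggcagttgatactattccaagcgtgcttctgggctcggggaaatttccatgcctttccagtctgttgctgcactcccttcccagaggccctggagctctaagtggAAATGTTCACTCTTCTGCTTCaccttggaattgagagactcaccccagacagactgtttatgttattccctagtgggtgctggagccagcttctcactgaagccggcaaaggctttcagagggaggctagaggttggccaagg
Gm34439, chr13:53787687-53787986, minus strand: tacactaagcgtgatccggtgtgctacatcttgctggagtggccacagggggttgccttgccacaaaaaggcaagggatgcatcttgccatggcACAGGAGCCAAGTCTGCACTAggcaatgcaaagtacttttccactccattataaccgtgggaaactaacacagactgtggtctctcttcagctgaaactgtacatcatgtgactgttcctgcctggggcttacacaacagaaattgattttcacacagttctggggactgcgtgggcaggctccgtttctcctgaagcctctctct
5033421B08Rik, chr12:8510913-8511212, plus strand: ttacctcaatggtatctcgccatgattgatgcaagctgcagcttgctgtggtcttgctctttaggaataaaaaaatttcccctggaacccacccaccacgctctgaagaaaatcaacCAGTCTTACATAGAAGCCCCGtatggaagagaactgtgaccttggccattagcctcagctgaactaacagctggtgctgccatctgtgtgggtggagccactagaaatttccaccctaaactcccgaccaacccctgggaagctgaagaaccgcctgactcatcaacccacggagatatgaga

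The B330016D10Rik window is rich in CpG, with 43 CpG dinucleotides and a GC content of 74.3%. Its site held 16 summit fragments at a fold of 13.6 and lay 7374 bp from Spen, which encodes a transcriptional corepressor. The other printed windows carried 5 CpG (Gm40122, 27 fragments over a local background 4.90 times the genome background), 5 CpG (Gm34439, 12 fragments) and 6 CpG (5033421B08Rik, 11 fragments). Over the 21 windows the median was 6 CpG, against 4 in all 11574 long non-coding RNA windows. At least 10 CpG were present in 8 of the 21, against 19.1% of all such windows. The motif CCCATAA, which is part of the known ZFP410 motif, was searched on both strands. It was found in 1 of the 21 windows, that of Gm39608 near Lgalsl, against 2.64% of all long non-coding RNA windows. The AP-1 motif TGANTCA, which reads the same on both strands, was found in 4 of the 21, against 9.31%, among them the printed window of 5033421B08Rik. These are matches of letters in short windows, and with 21 windows they describe those windows alone. Crnde, a long non-coding RNA gene next to the homeobox gene Irx5, also had a site at its promoter, with 6 fragments, 1531 bp from Irx5.

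More generally, 350 of the sites (13.2%, 12 to 14.6) had their summit inside a long non-coding RNA gene. Of the intergenic bases that could have held a site, 11.3% lay inside such genes. Kept sites had 111 of 505 summits there (22.0%, 18.6 to 25.8). Pseudogenes held 57 of the induced-only summits (2.16%, 1.67 to 2.78), 15 of them in a single stretch of chromosome 8 described further on, and 6 of the kept ones (1.19%, 0.546 to 2.57). The share of intergenic bases inside pseudogenes was not computed. The intervals of the long non-coding RNA shares of the 2 sets do not overlap, but peaks of 1 library are not replicates and the difference was not tested.

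Most of the induced-only sites were weak. The median site held 6 fragments at its summit (quartiles 5 and 8, range 4 to 87) and was 204 bp wide, against 11 fragments and 380 bp for kept sites. At most 5 fragments were present at 944 sites (35.7%, 33.9 to 37.5), and 15 or more at 133 (5.03%, 4.26 to 5.93). Scaled by genome background, an untreated count of 2.68 would be expected at the median site, and the weakest untreated peak at the genome background held 3. An expectation of at least 3 was reached by 1225 sites (46.3%). At 64 sites (2.42%, 1.90 to 3.08) the Poisson chance of fewer than 3 untreated fragments at equal enrichment was under 0.01. These expectations take the fragments of a called peak as its true level and ignore the local background, so the 64 do not count sites whose occupancy changed. At the remaining sites that chance was 0.01 or more.

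The local background was the one solved from the deposited fold and −log10 p. It equalled the genome background at 1824 sites (69.0%), exceeded it more than 2-fold at 324 (12.2%) and more than 10-fold at 43 (1.63%). The sites with most fragments were of the last kind. A site 14776 bp from Eapp on chromosome 12 held 87 fragments over a local background 49.5 times the genome background. Another near Dap, a gene of cell death signalling, held 75 fragments over 178 times the genome background, at a fold of only 1.69. Ranking by the authors' fold, which divides by that background, avoids most of these sites and was used in what follows.

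The site of highest fold lay 6455 bp from Tmem254b, a transmembrane protein gene on chromosome 14 (26196631 to 26197958), with 26 fragments (exact Poisson 95% interval 17 to 38.1) and a fold of 21.7. It ranked 104 of the induced list. The next lay 13235 bp beyond the 5′ end of Clstn3 (chromosome 6, 124477688 to 124478589), with 28 fragments (18.6 to 40.5) at a fold of 21.6. Clstn3 encodes a calsyntenin, and its locus also gives rise to a calsyntenin 3 form of thermogenic fat cells. At equal enrichment 11.6 and 12.5 untreated fragments would correspond to these counts, which restates the induced counts by the background ratio and is no measurement of the untreated library.

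Among the other top sites, 2 stood next to heat shock genes. A site 6369 bp from the 5′ end of Hsf2, which encodes a heat shock transcription factor, held 24 fragments (chromosome 10, 57477070 to 57477681). One 23127 bp from the 5′ end of Hspb3, a small heat shock protein gene, also held 24 (chromosome 13, 113686404 to 113686912). Both had a fold of 20.1 with no raised local background, and their counts would correspond to 10.7 untreated fragments at equal enrichment.

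The rest of the top 15 lay nearest to genes of varied function. Sites near Dlg5, encoding a polarity scaffold, and near Incenp, encoding a member of the chromosomal passenger complex, held 25 fragments each. The Incenp site lay inside the long non-coding RNA gene Gm36913. A site 50869 bp from the 5′ end of Wnt11, which encodes a Wnt ligand, held 29 fragments over a local background 2.22 times the genome background. Adamts6 (matrix protease), Ezr (the membrane linker ezrin), Csnk1d (a casein kinase of the circadian clock) and Capn9 (a calpain) had sites of 23, 28, 22 and 22 fragments. The site near Capn9 was 2374 bp from the gene and the one near Adamts6 30076 bp. Sites whose nearest genes were Nmur2 (229354 bp away), Cyp2d22, Dynlt1c and Ptms held 21 fragments each. At these 15 sites the corresponding untreated number ran from 9.37 to 12.9, and the nearest untreated peak was between 4637 and 507806 bp away.

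At the edge of the overlap rule, sites and non-sites lay close together. The 3 sites nearest to an untreated peak were 5, 8 and 26 bp from it, near Zfp978, Mtap and Efcab1, with 5 fragments each. The 3 kept sites with the smallest overlap shared 4, 4 and 9 bp with an untreated peak and held 11, 14 and 7 fragments. In all, 42 sites (1.59%) lay within 500 bp of an untreated peak and 274 (10.4%) within 10 kb, and the median gap was 286 kb.

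Taken over all strengths together, the induced-only sites lay farther from genes than the kept ones. The median induced-only summit was 56.0 kb from the nearest coding gene end (95% interval 51.8 to 61.4), and the median kept summit 24.3 kb (21.9 to 30.1). Between 1 and 10 kb from a gene end lay 17.1% of the induced-only sites (15.7 to 18.5) and 28.3% of the kept sites (24.6 to 32.4). Intergenic bases themselves had 14% in that range. Beyond 500 kb the shares were 10.5% (9.36 to 11.7), 2.97% (1.81 to 4.84) and 15% of bases. In every range the induced-only share lay between that of the kept sites and that of the bases, except from 50 to 100 kb, where it was 14.6%, against 13.3% and 13.2%.

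**Figure D1:**
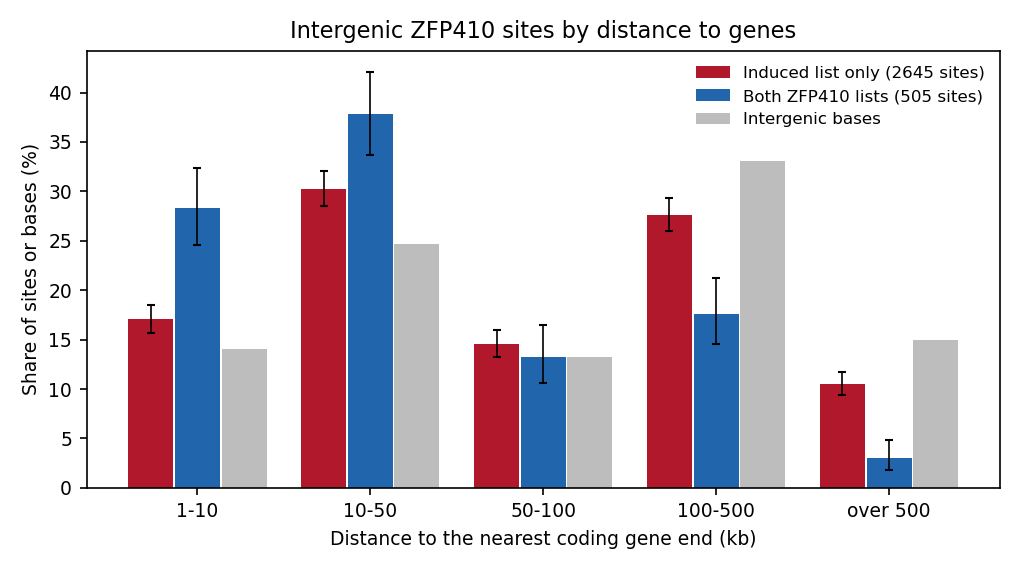
Share of sites (y axis, %) by distance from the summit to the nearest end of a coding gene (x axis, kb) for 2645 induced-only sites, 505 kept sites and all intergenic bases. Error bars are 95% Wilson intervals, and the induced-only bars lie between the other 2 in every range except 50 to 100 kb.

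Strong induced-only sites lay closer to genes than weak ones. The median distance was 69.1 kb (60.8 to 77.1) at 4 to 5 fragments, 58.7 kb (49.5 to 67.8) at 6 to 7, 51 kb (37.2 to 66.6) at 8 to 9 and 46.5 kb (33.7 to 55.8) at 10 to 14. At 15 or more fragments it was 25.8 kb (13.2 to 37.2, 133 sites). The medians of the kept sites showed no such order, at 29.8, 25.6, 22.0, 30.1 and 22.3 kb in the same classes. Their weakest class held only 32 sites, with an interval of 11.8 to 107 kb. That is too wide to tell whether a similar order was absent. At 15 or more fragments the intervals of both sets overlapped, as the kept sites spanned 16.7 to 26.3 kb (166 sites). The intervals of neighbouring induced-only classes overlapped, and those of the weakest and strongest classes did not. Within 10 kb of a gene lay 33.8% of the induced-only sites with 15 or more fragments (26.3 to 42.2) and 16.2% of those with fewer (14.8 to 17.7).

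**Figure D2:**
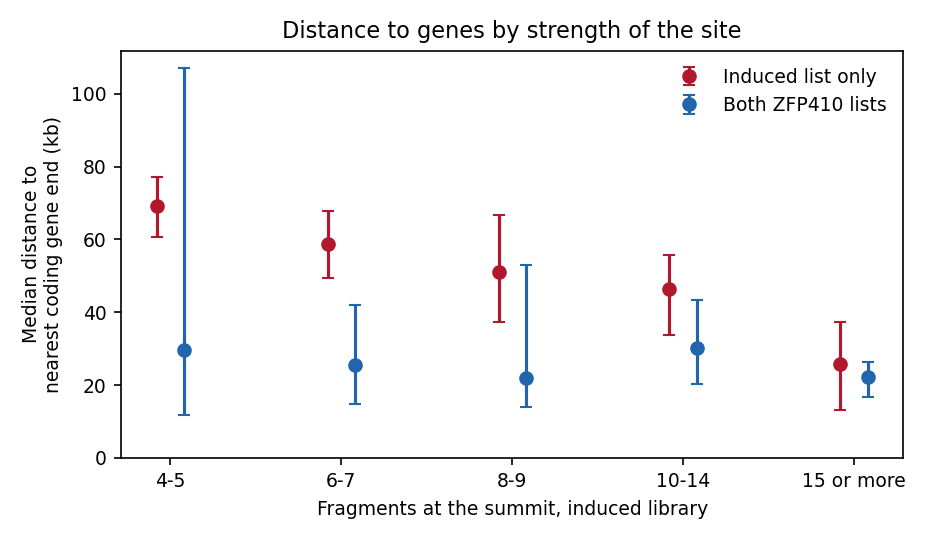
Median distance from the summit to the nearest coding gene end (y axis, kb) by fragments at the summit in the induced library (x axis) for induced-only and kept sites. Bars are 95% intervals of the median; the induced-only median goes from 69.1 kb in the weakest class to 25.8 kb in the strongest, where it meets the kept sites at 22.3 kb.

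Where RefSeq gave the strand of the nearest gene, its 5′ end was the nearer one at 1109 of 2079 induced-only sites (53.3%, 51.2 to 55.5) and at 231 of 395 kept sites (58.5%, 53.6 to 63.2). The sites therefore showed little preference for the start over the end of a gene. The 5 most remote sites lay between 1802106 bp and 1976009 bp from any coding gene, the farthest from Tmeff2, a transmembrane protein gene on chromosome 1. They held 4 to 11 fragments, the 11 being at the site near the activin receptor gene Acvr2a, 2346 bp from an IgG peak.

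The sites thinned out with the size of the gap between coding genes. Gaps of up to 50 kb held 2.35 induced-only sites per Mb, gaps of 50 to 200 kb 2.31, gaps of 200 to 1000 kb 1.65 and larger gaps 1.19. Kept sites thinned out more steeply over the same classes, at 0.737, 0.609, 0.241 and 0.0901 per Mb. Gaps over 1000 kb held 23.1% of the induced-only sites that lay in gaps (21.5 to 24.7) on 33.3% of the eligible bases. Sites were found in 1651 of 16527 gaps. By chromosome the density ran from 1.27 per Mb on X to 2.54 on chromosome 8, with a median of 1.71. Chromosome 8 owed its place to a single stretch and stood at 1.55 without it.

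That stretch, from 20 to 21 Mb of chromosome 8, held 73 of the 2645 sites (2.76%). The next densest windows of 1 Mb held 16 (X, from 123 Mb) and 10 (chromosome 7, from 64 Mb), and a window with any site had a median of 1. The stretch contains 7 coding genes, among them the beta-defensin gene Defb33, an antimicrobial peptide gene, and the predicted genes Gm15319, Gm40469 and Gm21119, with 11 pseudogenes and 3 transcribed pseudogenes beside them. The 73 sites were all weak, with 4 to 11 fragments (median 6). The untreated library also had 34 peaks there, the induced library 99 and IgG 4, and 9 induced peaks were kept sites. Only 29 of the 73 had a local background equal to the genome background, a smaller share than the 69.0% of all sites, and the highest was 4.95 times it. Whether this raised background has a part in the density of sites was not tested. Mappability and copy number of the stretch could not be examined from peak lists, so its sites may not be as many separate sites, which bears equally on its clusters and on the density of chromosome 8.

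Clusters were formed from summits at most 10 kb apart. In all 458 sites (17.3%, 15.9 to 18.8) fell into 190 clusters, 159 of them pairs, and 9 clusters held 5 or more. Kept sites, which are fewer and so sparser, had 74 of 505 in clusters (14.7%, 11.8 to 18). Without the stretch on chromosome 8 the shares were 15.1% and 13.9%, and the largest cluster of induced-only sites held 10 rather than 14.

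The largest cluster, of 14 sites over 40.2 kb, was nearest to Gm21119 in that stretch (20662885 to 20703414), where neither the untreated nor the IgG list had a peak. A further 3 of the 5 largest clusters were also in the stretch, nearest to Gm15319 (9 sites over 21.1 kb), 9530057J20Rik (8 sites over 24.6 kb) and Gm40469 (7 sites over 22.1 kb). The nearest gene that is not a predicted one was Defb33 for the clusters near Gm21119, Gm15319 and Gm40469, at 189265, 505028 and 374960 bp, and the defensin gene Defb7 for the one near 9530057J20Rik, at 518547 bp. Within their bounds lay 3, 1 and 5 untreated peaks, and 1 IgG peak in the cluster nearest to Gm40469.

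The second largest cluster lay outside that stretch. It lay next to Apba2, which encodes an adaptor protein of the amyloid precursor, with 10 sites over 25.2 kb on chromosome 7 (64468802 to 64494137). The sites held 4 to 9 fragments each and lay between 7480 and 32667 bp from Apba2. All 10 had a local background equal to the genome background. The same interval held 7 untreated and 0 IgG peaks, and 18 induced peaks in total. The induced-only sites were thus spread among sites that both libraries listed. Mappability and copy number could not be examined for this cluster either, nor for the dense windows of the X chromosome.

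**Figure D3:**
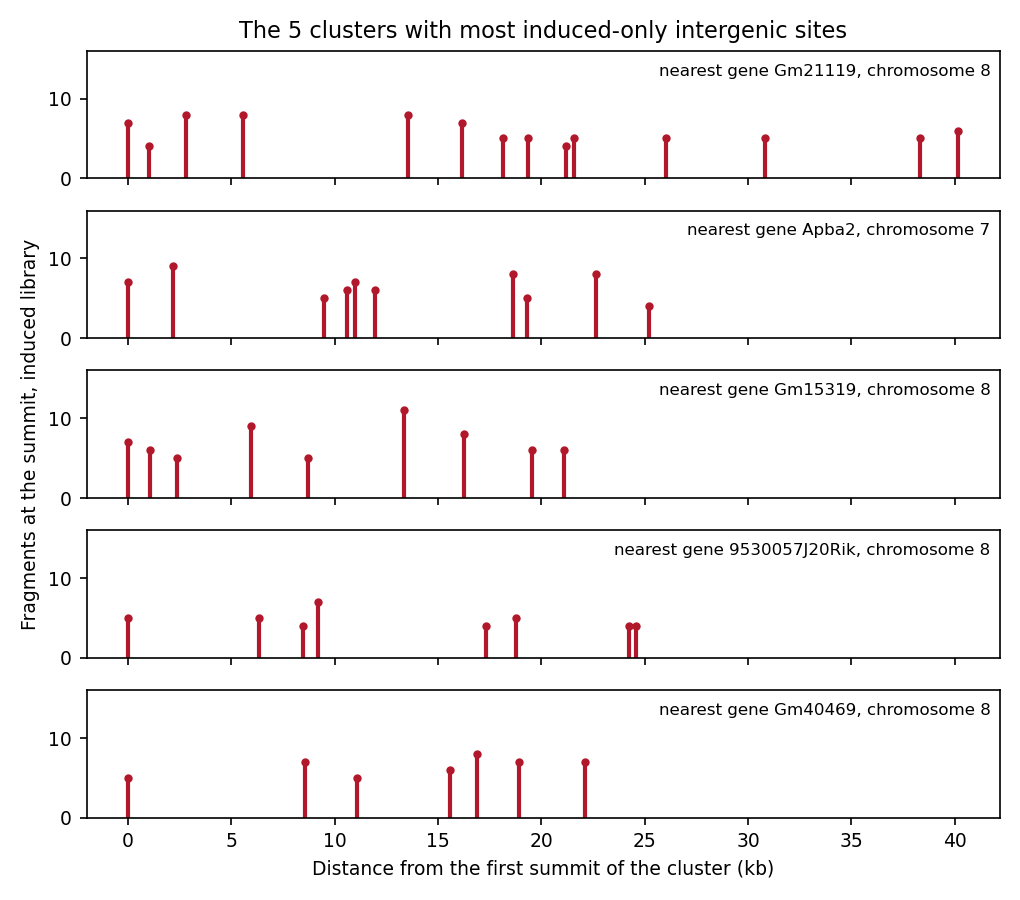
Fragments at the summit in the induced library (y axis) against distance from the first summit of the cluster (x axis, kb) for the 5 clusters with most induced-only sites, 1 line per site. Single sites hold 4 to 11 fragments, and the clusters span 21.1 to 40.2 kb.

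Outside chromosome 8 and Apba2, dense neighbourhoods were small. The gap between Vmn2r121 and 4932411N23Rik on the X chromosome had 17 sites, but over 2677 kb. Mreg, which encodes a melanosome transport protein, and the neighbouring chemokine genes Ccl2 and Ccl7 each had 6 sites within 50 kb. The strongest near Ccl2 by fold held 26 fragments 1401 bp from the gene, over a raised local background of 1.84 fragments, against a genome background of 0.246. Another near Ccl2 held 59 fragments over 74.3 times the genome background. Snx6, a sorting nexin gene, had 5 sites within 50 kb, including one of 47 fragments 8032 bp away (chromosome 12, 54736988 to 54738466) at 14.8 times the genome background.

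Of 21631 coding genes, 2141 (9.9%) had an induced-only site within 50 kb of an end, 1821 of them a single site. A kept site lay within the same distance of 700 (3.24%). The nearest coding gene differed from site to site, with 1823 distinct nearest genes for the 2645 sites, 271 sites being nearest to a predicted gene. Gene lists were set against the 9.9% as a description, with no test of enrichment.

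Immediate early and stress genes, which cells switch on rapidly after stimulation, had the highest share of the lists examined. A site lay within 50 kb of 15 of 34 (44.1%, 28.9 to 60.5). The list was drawn up with earlier results of these data in view. The strongest site by fold lay 5.17 kb from Sesn2, which encodes a stress-induced sestrin, with 12 fragments. Trib1, a pseudokinase gene, also had 12 fragments, at 35.4 kb, and Klf6, a Krüppel-like factor gene, 11 at 23.9 kb. Dusp1, encoding a phosphatase that switches off MAP kinases, had 4 sites within 50 kb, the strongest with 10 fragments at 2.52 kb.

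Further members of the list were transcription factor genes of the immediate early response. Sites with 5 fragments each lay 2.38 kb from Fosb, 11.2 kb from Egr1, 4.44 kb from Egr2 and 31.5 kb from Nr4a2. Nr4a1 had 7 fragments at 7.70 kb and Fosl1 14 at 15.5 kb, the last over a local background 6.30 times the genome background. Regulators of oxygen, oxidative and nutrient stress also had sites of 7 fragments, at 6.32 kb for Hif1a, 26.9 kb for Nfe2l2 and 31.3 kb for Ddit4. Btg1 had 6 at 5.69 kb. Ier3 had 10 fragments at 13.5 kb, over a local background 7 times the genome background, from a site that also lay within 50 kb of the tubulin gene Tubb5. The genes named beyond Sesn2, Trib1, Klf6 and Dusp1 were chosen after their values had been seen.

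Kept sites were also common near this list, within 50 kb of 8 of its 34 genes, against 3.24% of all coding genes. Under a stricter −log10 q minimum of 5, the induced-only count was 9 of 34 (26.5%), against 4.76% of all coding genes.

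**Figure D4:**
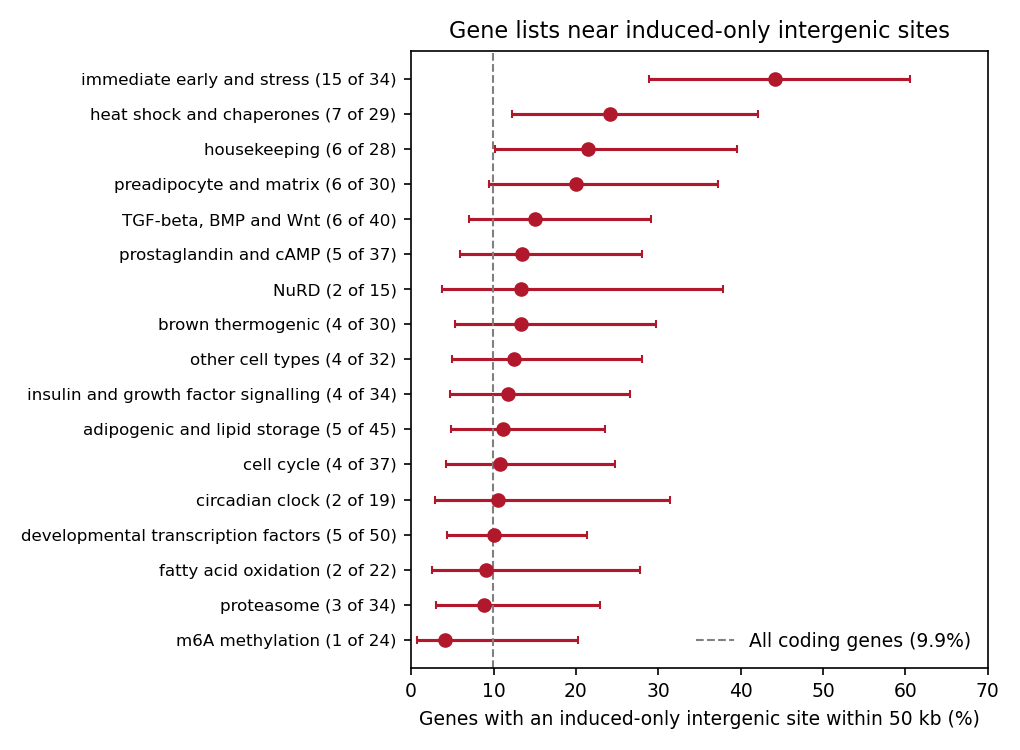
Share of the genes of each list with an induced-only site within 50 kb of an end (x axis, %), with the count in brackets and 95% Wilson intervals. The dashed line is the share of all coding genes, 9.9%; the interval of the immediate early and stress list starts at 28.9%.

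Heat shock and chaperone genes stood at 7 of 29 (24.1%, 12.2 to 42.1). Besides the strong site at Hsf2, a site of 8 fragments lay 3.66 kb from Hspa1b and 16.6 kb from Hspa1a, the paired genes of inducible Hsp70, which share it. Bag3, a cochaperone gene, had 6 fragments at 36.3 kb. Stip1, seen after its value to differ from these, had 36 fragments at 15.2 kb but over a local background 39.2 times the genome background. Housekeeping genes, which served as a comparator for open chromatin, stood at 6 of 28 (21.4%, 10.2 to 39.5), led by Tuba1b with 13 fragments at 37.0 kb and Actb with 10 at 12.9 kb. The chaperone and housekeeping intervals overlap widely. The interval of the immediate early and stress list (28.9 to 60.5) also overlaps that of the housekeeping genes.

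Preadipocyte and matrix genes stood at 6 of 30 (20%, 9.51 to 37.3). The fibrillar collagen gene Col3a1 had 4 sites within 50 kb, the strongest with 7 fragments at 11.6 kb, and Fbn1, the fibrillin gene, had 3, led by 11 fragments at 24.4 kb. Sparc, a matrix glycoprotein gene, had 9 fragments at 32.8 kb, and Col6a3 11 at 47.9 kb. The local backgrounds of the Fbn1 and Col6a3 sites with 11 fragments were 2.19 and 2.71 times the genome background. Markers of other cell types stood at 4 of 32 (12.5%). The strongest of their sites, with 21 fragments, lay 31.7 kb from Cd4. It is the site named above for Ptms, which was nearer, at 2006 bp. Pecam1 of endothelium had 11 fragments at 7.75 kb, Sox10 6 at 49.8 kb and Acta2 5 at 14.7 kb. The intervals of the immediate early, heat shock and housekeeping lists lay above 9.9%, and those of the other lists of this kind included it. That is a description and not a test. The 7 heat shock genes had 6 distinct sites, so their interval is too narrow.

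Adipogenic and thermogenic genes stood near the share of all genes. Of 45 adipogenic and lipid storage genes 5 had a site (11.1%, 4.84 to 23.5). Dgat2, encoding an enzyme of the last step of triglyceride synthesis, had the strongest, with 16 fragments at 10.2 kb. The stearoyl-CoA desaturase genes Scd2 and Scd1 had 11 fragments at 28.1 kb and 9 at 14.7 kb, Adipoq, the adiponectin gene, 6 at 9.36 kb, and Pparg, the master regulator of adipogenesis, 5 at 11 kb. Of 30 thermogenic genes 4 had a site (13.3%, 5.31 to 29.7). Ucp1, the uncoupling protein of brown fat, had a site of 6 fragments 11.7 kb away (chromosome 8, 83278456 to 83278737), which was nearer to Tbc1d9, at 5726 bp. Bmp8b, Nr4a1 and Irf4 had 7, 7 and 6 fragments. Cebpa had no site within 50 kb, its nearest being 1148 kb away.

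Signalling lists were of the same order. TGF-beta, BMP and Wnt genes stood at 6 of 40 (15%), led by the Wnt coreceptor gene Lrp6 with 14 fragments at 35.1 kb and the Wnt antagonist gene Sfrp2 with 13 at 25.4 kb. Insulin and growth factor genes stood at 4 of 34 (11.8%). Among these Fgf2 had 22 fragments at 5.52 kb, over a local background 6.77 times the genome background. Prostaglandin and cAMP genes stood at 5 of 37 (13.5%), led by Creb1 with 12 fragments at 45.0 kb. Ptgs1, a cyclooxygenase gene, had 5 at 18 kb and Hpgd, encoding the enzyme that inactivates prostaglandins, 8 at 16.1 kb. Ptger3, the EP3 receptor gene, had none within 50 kb and its nearest at 1107 kb.

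Of 24 m6A genes only Ythdf3, a reader of the mark, had a site (4.17%, 0.739 to 20.2), with 6 fragments at 41.6 kb. The local background of that site was 3.30 times the genome background. Wtap had none within 50 kb, its nearest site being 97.9 kb away with 6 fragments, over 2.33 times the genome background. NuRD genes stood at 2 of 15. At Chd4 a site of 7 fragments (chromosome 6, 125092227 to 125092825) lay 3.66 kb from the gene, where 3 kept sites also lay within 50 kb. Gatad2b had 6 fragments at 5.06 kb. Zfp410 itself had no site within 50 kb and its nearest at 2555 kb. Cell cycle genes stood at 4 of 37, with Cdkn1a and Mcm5 at 8 fragments each, and proteasome genes at 3 of 34. Psma6 had 4 sites within 50 kb. The strongest of them, of 8 fragments, lay 48.0 kb away in a cluster nearest to Nfkbia. Developmental transcription factor genes, often surrounded by wide gaps, stood at 5 of 50 (10.0%). Twist2 had 8 fragments at 9.25 kb, Irx5 6 and Sox5 5. Clock genes stood at 2 of 19, Nfil3 and Per2, and fatty acid oxidation genes at 2 of 22, Eci2 and Etfdh.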

How the data were processed

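CUT&Tag peak lists of 3 libraries were used, 1 per group, with groups taken from the sample labels. The submitters' processing notes name MACS2 2.1.1, Bowtie2 2.2.6, Picard and the mm10 build. The lists deposited by the authors give a score, a fold over local background, and the −log10 of p and q, and their peak names carry a q threshold of 0.1. Duplicate handling was not given in the sources used here, nor was the caller's control.

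Summit fragments and local background were solved from the deposited fold, (fragments + 1)/(background + 1), and −log10 p, the Poisson tail. Whole fragment numbers reproduced −log10 p to within 0.001 at all but 1 untreated and 1 induced peak. On simulated peaks 99.9% of 1000 untreated and 100% of 1000 induced were recovered. Genome background is the lowest local background of a list, and relative depth is the step of the raised backgrounds. The genes were 21631 RefSeq coding genes of GRCm38.p6, the coordinates of mm10. Intervals at 95% cover counting error only, and medians have order-statistic intervals. With 1 library per group no test was made, and no paired analysis was possible.

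The members and gene lists were chosen with earlier results of these data known. Named sites followed a written rule: the 15 of highest fold, the 5 farthest from genes, the 5 largest clusters, the 5 fullest gaps, the 5 genes with most sites, up to 4 genes per list, and Zfp410, Chd4, Wtap, Ptger3, Ucp1, Pparg and Cebpa. Other sites and genes were named after their values had been seen. Python 3.11.15, numpy 2.4.6, pandas 2.3.3, scipy 1.17.1 and matplotlib 3.10.9 were used. A genome sequence was not used here, so sequences come from the RefSeq promoter table alone.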

Additional observations from a re-analysis of the deposited data

How the results depend on the processing

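No paired analysis was possible because each group had 1 library. At a −log10 q of at least 5 there were 1020 sites, 28.7% of induced peaks, with a median distance of 43.6 kb, 9.80% in clusters, 1029 genes within 50 kb, 9 immediate early and stress genes and a median of 4.02 fragments expected in the untreated library. At a fold of at least 5 the values were 1491 sites, 31.6%, 47.3 kb, 12.3%, 1381 genes and 3.57 fragments. With non-coding genes also excluded the share of induced peaks was 29.7%. Gene-end windows of 5 kb gave a median distance of 68.8 kb, and at the genome background 12.8% of sites were in clusters. Clustered sites made up 14.4% at a gap of 5 kb, 29.3% at 50 kb, 10.5% with sites within 2 kb merged and 15.1% without the chromosome 8 stretch, a setting chosen after seeing the data. Genes with a site numbered 1210 within 25 kb and 3821 within 100 kb. Scaled by relative depth, 2.99 untreated fragments would have been expected at the median site. The count of immediate early and stress genes was also added to the alternatives after seeing the data. The other 30 recomputed values stayed within the margins used: 1.5 times for counts and the interval of the reported value otherwise. Stricter thresholds keep fewer, stronger sites and wider windows reach more genes by construction; for the other changes the cause was not tested. The depth of the untreated library limits what the absence of a peak can show, and that of IgG still more.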

Other observations

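Tandem gene families differ from single genes in that 1 site can serve many members. Olfactory receptor genes had a site within 50 kb at 100 of 1110 (9.01%, 95% Wilson interval 7.46 to 10.8) through 28 distinct sites. The leading site held 15 fragments and lay between Olfr54 and Olfr51 on chromosome 11. Its local background was 0.920 fragments, against a genome background of 0.246. Vomeronasal receptor genes stood at 41 of 355 (11.5%) through 26 sites, with Vmn2r75 at 14 fragments. Zinc finger genes stood at 44 of 465 (9.46%) through 34 sites. The strongest of these held 18 fragments at a fold of 15.2 and lay 2170 bp from Zfp660 and 2459 bp from Zkscan7 on chromosome 9 (122900941 to 122901252).

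Keratin genes had 0 of 53 (95% Wilson interval 0 to 6.76%) and histone genes 1 of 95, H1f10 with 4 fragments. Genes of a family lie together and can share a site, so intervals over such genes are too narrow. Kept sites lay within 50 kb of 4 keratin and 8 histone genes. Solute carrier genes stood at 37 of 375 (9.87%). Among them Slc16a3, which encodes a lactate exporter, lay 45456 bp from a site of 22 fragments. That site is the one named above for Csnk1d, which was nearer, at 13106 bp. Cytochrome P450 genes stood at 8 of 99 (8.08%), with Cyp2d22, Cyp2d11 and Cyp2d10 sharing a site of 21 fragments.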
